A study of Mus musculus with 5 samples.

Results

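The proteins of the cytosolic ribosome are encoded by a large family of genes that nearly every cell expresses at high levels. Its 78 members here are the gene symbols of the deposited count table that carry an Rpl, Rps or Rplp name with a number, without the paralogs Rpl39l and Rps27l, out of 22869 symbols in all. They comprise 45 genes of the large subunit, 30 of the small subunit and the 3 genes of the stalk, the flexible arm of the large subunit that recruits elongation factors. Rpl29, a large subunit protein, was singled out with its result in these data already known, so its values are given as a description.

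RNA was sequenced from intervillus cells, the proliferating epithelium between the villi of the newborn gut, captured by laser from the proximal jejunum of mice at postnatal day 0. Mutants 4 and 6 had the genotype Dnmt1 L/L; VillinCre, in which Cre acts in the gut epithelium and deletes a part of Dnmt1, the methyltransferase that copies DNA methylation after replication. Controls 1, 2 and 3 were littermates of genotype Dnmt1 L/+, and the labels do not say whether they carried Cre. Mutant areas were chosen as negative and control areas as positive for the proliferation marker Ki67 on neighbouring sections, so genotype and this choice cannot be told apart. All 5 libraries share the fixation (1 h in methacarn, then paraffin) and amplification from between 2.3 and 33.3 ng of RNA.

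A ribosome needs 1 copy of most of its proteins, and mammalian cells make them in step. Their messages share a short pyrimidine stretch at the very start, the TOP element, through which the kinase mTOR and the RNA-binding protein Larp1 control their translation. Proliferating epithelium such as that of the intervillus region is a heavy user of ribosomes. Mammalian genomes also hold many processed pseudogenes of these genes, copies of the spliced message, which matters for counting short reads.

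The libraries held 8730268 and 10260760 reads for mutants 4 and 6, against 13356901, 13101286 and 10530200 for controls 1, 2 and 3, counted with 1 row per gene. Dnmt1 had 427 and 525 counts in the mutants, against 2240, 2163 and 1351 in the controls. Transcripts of the Y chromosome were nearly absent from both mutants and present in all controls. Xist had 10179 and 8277 counts in the mutants, against 66, 72 and 42 in the controls. This split follows the groups, and the labels do not give sex, so sex and genotype cannot be told apart. Markers of the epithelium summed to 3789 and 3646 CPM (counts scaled to the size of the library) in the mutants, against 3642, 3901 and 3878 CPM in the controls. A gene is called at an edgeR adjusted p under 0.05, and 6.11% of all genes tested were called higher and 4.17% lower. Of 7 epithelial markers, Krt18 was called higher, at a mean of 306.8 CPM in mutants and 177.4 CPM in controls. Cdx2 was called lower, at 28.3 CPM in mutants and 54.4 CPM in controls. Mesenchymal and smooth muscle markers summed to 1653 and 1539 CPM in the mutants, against 1003, 1060 and 1062 CPM in the controls. Of these 9, 6 were called higher. Immune markers summed to 245 and 222 CPM in the mutants, against 118, 126 and 87.5 CPM in the controls, with 1 of 5 called higher. That was Csf1r, at a mean of 167.2 CPM in mutants and 57.5 CPM in controls, which made up most of the difference. The uncalled markers averaged 8.11 against 7.50 (C1qa), 11.99 against 8.0 (Cd68), 24.5 against 20.5 (Lyz2) and 21.6 against 17.1 CPM (Ptprc). Endothelial markers summed to 203 and 190 CPM in the mutants, against 141, 154 and 168 CPM in the controls, with 0 of 5 called. Markers of enteric neurons and glia summed to 29.02 and 31.1 CPM in the mutants, against 18.9, 24.2 and 14.6 CPM in the controls, with 0 of 3 tested called. Erythroid markers summed to 68.4 and 66.5 CPM in the mutants, against 49.4, 55.9 and 61.7 CPM in the controls, with 1 of 5 called lower. That was Alas2, at a mean of 3.58 CPM in mutants and 7.27 CPM in controls, while the uncalled globin genes averaged higher in mutants. Hba-a1 and Hba-a2 had identical counts in every library, as did Hbb-b1 and Hbb-b2, so this sum may count the same reads repeatedly. No marker of any of these lists was at 0 in all libraries, and the part of this makeup in the results below was not tested. Fewer cells of a type and less RNA per cell cannot be told apart in such samples.

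Rpl29 was nearly absent from both mutants and well expressed in every control. It binds at the surface of the large subunit, and mice that lack it are viable but small. Its transcript NM_009082 had 14 counts in mutant 4 and 13 in mutant 6, against 2992, 1763 and 1279 in controls 1, 2 and 3. On the CPM scale the mutants had 1.24 and 1.00, against 164.7, 104.3 and 90.1 in the controls. The lowest control stood far above the higher mutant, and the controls themselves spread 1.83-fold, with control 1 highest.

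The mean level of Rpl29 was 1.12 ± 0.167 CPM in mutants and 119.7 ± 39.6 CPM in controls (SD, n = 2 and 3). Its log2 fold change, mutant over control, was -6.74 ± 0.34 (SE). It was called in the edgeR quasi-likelihood test over all genes (Benjamini-Hochberg adjusted p under 0.05), which is not independent evidence, since the gene was chosen for this difference. The ratio of summed counts after scaling was 0.00909, with an exact 95% interval of 0.00598 to 0.0132 that covers counting error only. The authors' FPKM, which scales reads to transcript length, was 0.847 and 0.677 in mutants 4 and 6, against 158.7, 102.2 and 73.9 in controls 1, 2 and 3. By FPKM it was therefore the lowest in both mutants of the 76 members that passed the filter on low counts. It ranked 23, 32 and 35 in controls 1, 2 and 3. Within a gene, FPKM was not a fixed multiple of CPM. The member Rpl12, for example, had 9.02 and 8.10 CPM but 16.3 and 9.53 FPKM in mutants 4 and 6. Why the FPKM and the counts differ was not tested, so levels and ranks by FPKM carry this limit.

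Among the counts of all members, Rpl29 took 0.0151% in mutant 4 and 0.0109% in mutant 6 (exact 95% intervals 0.00825 to 0.0253% and 0.00578 to 0.0186%). Its share was 1.82%, 0.940% and 0.902% in controls 1, 2 and 3 (1.75 to 1.88%, 0.897 to 0.985% and 0.854 to 0.953%). The mutants' counts stood above the floor of 3 counts, which is 0.265 and 0.232 CPM in those libraries. Whether these few reads came from Rpl29 itself or from its copies was not tested. Of 7160 genes with a mean of at least 20 CPM in the controls, Rpl29 had the fifth lowest ratio of mutant to control mean CPM, 0.00937. The 4 genes below it, Uty, Ddx3y, Eif2s3y and Kdm5d, are all Y-linked, and the next above it was the gasdermin gene Gsdmc2 at 0.0273.

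**Figure D1:**
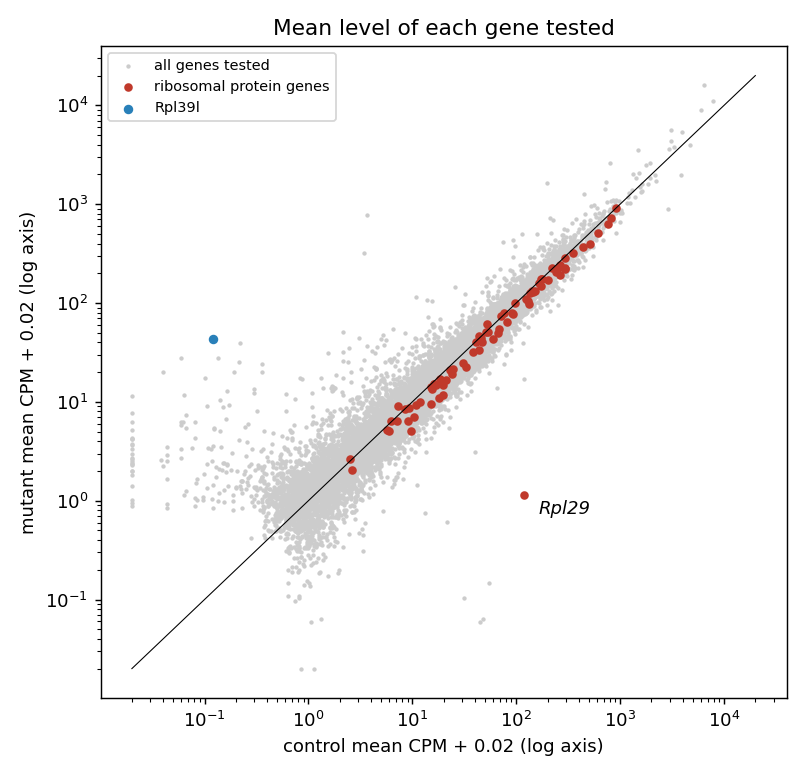
Mean CPM in mutants (vertical, log axis) against mean CPM in controls (horizontal, log axis) for each of the 14572 genes tested, with 0.02 CPM added. The 76 ribosomal protein genes tested (red) lie along the line of equal level, mostly a little below it, apart from Rpl29 at 1.12 CPM in mutants and 119.7 CPM in controls; the paralog Rpl39l (blue) lies far above the line.

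Rpl29 lies on chromosome 9 (GRCm38 chr9:106429454-106431568, plus strand, 4 exons, 483 coding bases). The count table was made on the older build mm9 and holds no coordinates, so position and sequence were taken through the gene's name from the GENCODE annotation. None of the 3 genes on either side was called. Before it lie Alas1, the first enzyme of haem synthesis (log2 fold change 0.25, adjusted p = 0.253), Poc1a (-0.50, adjusted p = 0.136) and Dusp7 (0.27, adjusted p = 0.546). After it lie Acy1 (0.34, adjusted p = 0.309), Abhd14a (-0.52, adjusted p = 0.119) and Abhd14b (0.39, adjusted p = 0.123). These p-values are from the same edgeR test with Benjamini-Hochberg adjustment.

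How a read of Rpl29 is counted depends on its copies, so the stretches of its message that copies share are shown here. Its matching transcript of 733 bases holds 634 windows of 100 bases, the read length used, and 50.95% of them are found letter for letter in another annotated transcript. They occur in 27 other genes, 24 of them pseudogenes. Of 384 windows inside the coding sequence, 298 are found elsewhere and 86 are not, and each of these 86 differs from its nearest copy by 1 base. Of the windows outside the coding sequence or across its end, 225 are found in no other gene. The first sequence below is a window shared with many other genes, 13 (chr9:106431119-106431218, GRCm38, plus strand, exon 4, coding bases 153 to 252). The second is a window found in no other gene (chr9:106431167-106431266, exon 4, coding bases 201 to 300), whose single capital marks the only base that differs from its nearest copy, in a transcript of Uimc1.
Rpl29 shared window: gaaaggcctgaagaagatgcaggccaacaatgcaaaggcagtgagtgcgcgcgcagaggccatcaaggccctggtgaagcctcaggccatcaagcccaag
Rpl29 own window: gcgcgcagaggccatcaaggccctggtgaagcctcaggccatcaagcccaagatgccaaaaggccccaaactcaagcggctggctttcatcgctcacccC

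Uimc1, a DNA repair adaptor, was the 1 gene of the 27 with a row in the count table, matched by its name. Whether the Uimc1 transcript counted there holds the stretch shared with Rpl29 was not tested. Uimc1 had 277 and 387 counts in mutants 4 and 6, against 547, 560 and 398 in controls 1, 2 and 3. It was not called (log2 fold change -0.16, edgeR adjusted p = 0.581). The sources used here do not give how reads with several matches were counted.

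The other members were mostly slightly lower in the mutants, and few passed the test. Of 76 members tested, 0 were called higher, 4 lower and 72 neither, at an edgeR adjusted p under 0.05. Over all 14572 genes tested, 10.3% were called in either direction. The 4 are 5.26% of the members, near the 4.17% of all genes that were called lower, while 6.11% of all genes were called higher. The log2 fold change was negative in 66 of 76 members (86.8%), against 50.8% of all genes. Both mutants lay below every control in 26 members (34.2%), against 21.8% of all genes, and above every control in 0, against 21.7% of all genes. At an unadjusted p under 0.05, 16 members (21.1%) were lower and 0 higher, against 12.1% and 13.5% of all genes.

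The median log2 fold change of the members was -0.20 with Rpl29 and -0.20 without it, and the quartiles were -0.33 and -0.09. Over all genes tested the median was -0.01. The members share libraries and scaling, so they are not independent of each other. The median depended on single libraries: leaving out control 2 gave -0.12, leaving out mutant 4 gave -0.13 and leaving out mutant 6 gave -0.31. The labels do not say that libraries came from separate animals, so all p-values here measure only the spread between these libraries.

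**Figure D2:**
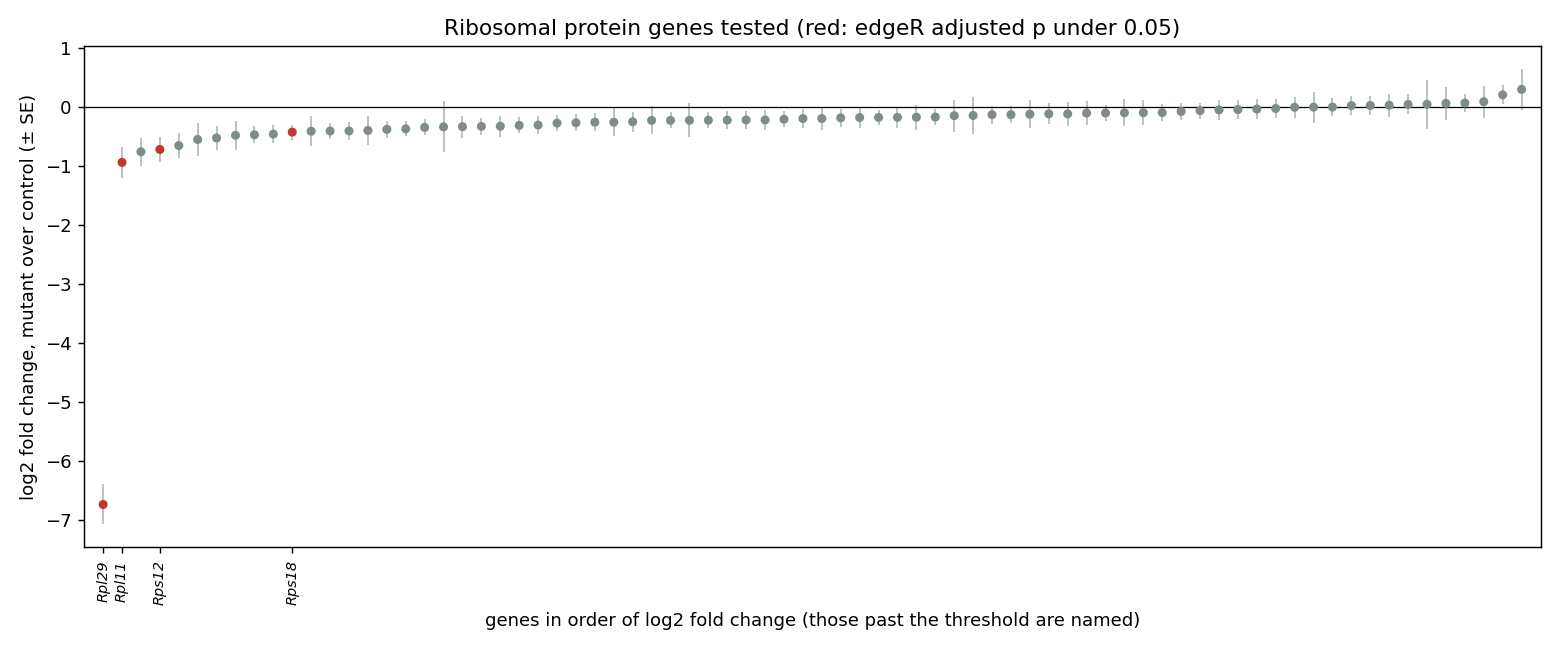
Log2 fold change, mutant over control, of each of the 76 ribosomal protein genes tested, in order of size, with bars of ± 1 SE from edgeR. Rpl29 stands at -6.74, the next at -0.94 (Rpl11) and the highest at 0.30 (Rps29); the 4 red genes had an adjusted p under 0.05.

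Together the members took 1.06% and 1.17% of counts in mutants 4 and 6, against 1.23%, 1.43% and 1.35% in controls 1, 2 and 3. The group means were 1.11 ± 0.0743% and 1.34 ± 0.0993% (SD, n = 2 and 3), and the groups did not overlap. Without Rpl29 they were 1.11% in mutants and 1.32% in controls. Of the summed FPKM the members took 2.81% and 2.91% in the mutants, against 3.39%, 3.58% and 3.75% in the controls. With 2 against 3 libraries, an exact two-sided permutation test cannot go below p = 0.2, and none was run.

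The libraries of 1 group also differed in a shared way. Mutant 6 was above mutant 4 in 63 of 76 members, and control 2 was the highest control in 52, control 3 in 17 and control 1 in 7. Rpl29 was among these 7. The ratio of the higher to the lower mutant had a median of 1.15, and that of the highest to the lowest control a median of 1.27.

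In the large subunit, 43 of 45 genes passed the filter on low counts, with a median log2 fold change of -0.18. Of these, 0 were called higher, against 6.11% of all genes. Called lower were 2 (4.65%, or 2.38% without Rpl29, near the 4.17% of all genes). Beside Rpl29 this was Rpl11, which with Rpl5 and the small ribosomal RNA of the large subunit forms a particle that can bind Mdm2 and so stabilise p53. Rpl11 had 4.87 and 5.25 CPM in mutants 4 and 6, against 8.64, 9.88 and 10.6 CPM in controls 1, 2 and 3. All controls were above both mutants (log2 fold change -0.94 ± 0.26, edgeR adjusted p = 0.0359). Its partner Rpl5 had 53.4 and 68.2 CPM in the mutants, against 45.6, 60.9 and 51.8 CPM in the controls, with overlapping groups (0.21 ± 0.16, edgeR adjusted p = 0.455).

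The large subunit genes next in order of size did not pass the test. Rpl35a had 10.9 and 12.6 CPM in the mutants, against 18.4, 15.6 and 25.7 CPM in the controls (log2 fold change -0.76 ± 0.24, edgeR adjusted p = 0.0583). Rpl9 had 9.91 and 9.18 CPM in the mutants, against 13.5, 15.9 and 15.6 CPM in the controls (-0.65 ± 0.21, edgeR adjusted p = 0.0678). In both genes the mutants lay below every control.

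In the small subunit, all 30 genes were tested. Of these, 2 were called lower (6.67%, near the 4.17% of all genes) and 0 higher (against 6.11% of all genes). The log2 fold change was negative in 28 (93.3%, against 50.8% of all genes), and the median was -0.22. Rps12 had 11.2 and 10.7 CPM in mutants 4 and 6, against 15.6, 19.2 and 19.01 CPM in the controls (log2 fold change -0.72 ± 0.20, edgeR adjusted p = 0.0398). Rps18, a protein of the head of the subunit, had 98.2 and 98.8 CPM in the mutants, against 140.3, 129.4 and 127.1 CPM in the controls (-0.43 ± 0.13, edgeR adjusted p = 0.0473). Both mutants were close to each other and below every control in both genes. Rps29 had the highest log2 fold change of all members, 0.30 ± 0.35, and its groups overlapped at 7.08 and 10.9 CPM in the mutants against 4.85, 11.2 and 5.84 CPM in the controls (edgeR adjusted p = 0.635).

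The calls of Rpl11, Rps12 and Rps18 were not firm. They held in 7, 7 and 5 of 16 alternative settings, and all 3 were lost without control 1, control 2, mutant 4 or mutant 6. Without control 3, Rps18 kept its call and Rpl11 and Rps12 lost theirs. The adjusted p over these settings ran from 0.0174 to 0.257 for Rpl11, from 0.0205 to 0.182 for Rps12 and from 0.0287 to 0.326 for Rps18. The fall of Rpl29 was called in every setting.

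The 3 stalk genes were not called, and their median log2 fold change was -0.23. Rplp1 had 356.9 and 385.9 CPM in the mutants, against 423.1, 402.6 and 478.3 CPM in the controls (log2 fold change -0.23, edgeR adjusted p = 0.307). Rplp2 also had both mutants below every control (-0.27, edgeR adjusted p = 0.266), and Rplp0, which anchors the other stalk proteins, had overlapping groups (-0.13, edgeR adjusted p = 0.611).

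**Figure D3:**
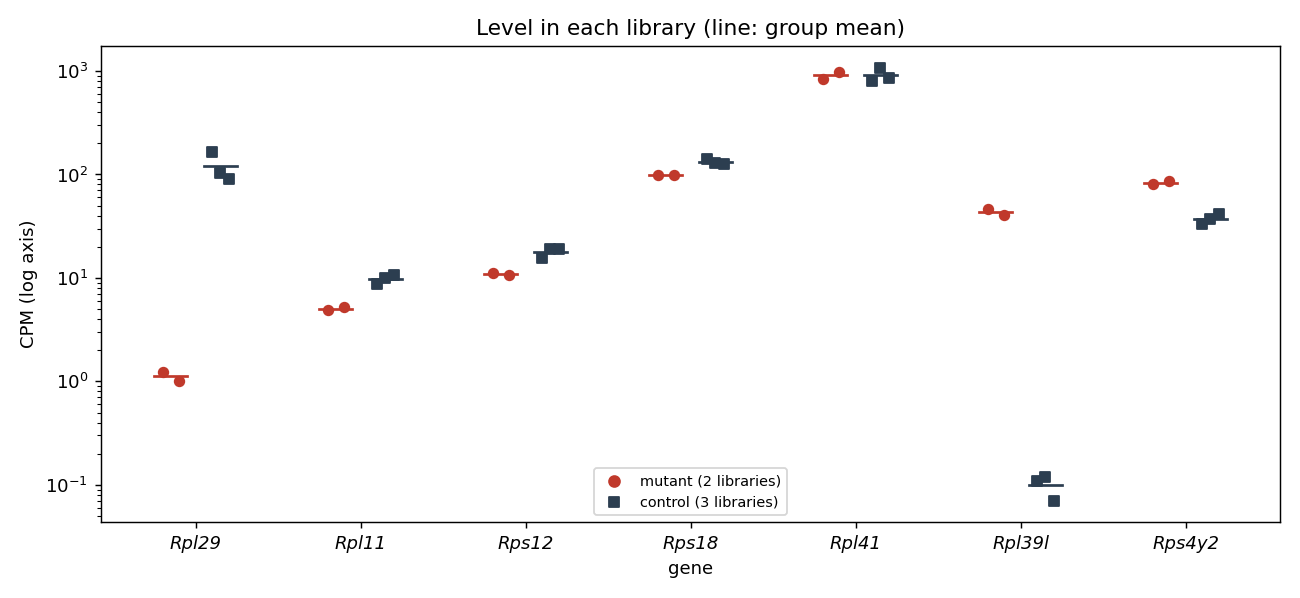
CPM (log axis) of 5 ribosomal protein genes and the paralogs Rpl39l and Rps4y2 in each library, mutants as red circles at the left and controls as dark squares at the right of each gene, with a line at the group mean. Rpl29 is at 1.24 and 1.00 CPM in mutants against 164.7, 104.3 and 90.1 CPM in controls; Rpl11, Rps12 and Rps18 lie a little below the controls, and Rpl41 overlaps them.

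Among genes compared per length, Rpl41, the shortest ribosomal protein, stood highest at 1151 ± 96.3 FPKM in mutants and 1152 ± 194.0 FPKM in controls. Its log2 fold change was 0.00 ± 0.15 (edgeR adjusted p = 0.999), and its sign turned with the scaling. Rplp1 had 581.1 and 620.7 FPKM in the mutants, against 786.8, 693.1 and 736.7 FPKM in the controls. Rpl4 had 456.4 and 481.8 FPKM in the mutants, against 496.1, 614.3 and 491.5 FPKM in the controls, and on the CPM scale, at 697.6 and 744.3 in the mutants against 698.7, 902.5 and 832.2 in the controls, its groups overlapped. Rpl8 averaged 410.6 ± 25.2 FPKM in mutants and 527.6 ± 38.0 FPKM in controls (SD, n = 2 and 3). Neither Rpl4 nor Rpl8 was called (edgeR adjusted p = 0.489 and 0.0829). The median member had 41.6 FPKM in mutants and 56.1 FPKM in controls.

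At the other end, Rpl10l and Rpl3l did not pass the filter. Rpl10l is a paralog of Rpl10 known from testis and had 0 and 1 counts in mutants 4 and 6, against 0 in every control. Rpl3l is a paralog of Rpl3 known from striated muscle and had 0 and 1 counts in the mutants, against 1, 3 and 0 in the controls. No fold is given for these, since both groups are at or under the floor of 3 counts per library. The lowest tested members were Rpl24 at 1.98 FPKM in mutants and 2.61 FPKM in controls, Rpl17 at 3.90 FPKM in mutants and 5.67 FPKM in controls, and Rpl28 at 5.09 FPKM in mutants and 3.46 FPKM in controls, and none was called.

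The members' FPKM differed widely although 1 copy of most proteins is needed per ribosome, and the level ran with the sequence shared with other genes. Windows of 100 bases were found in another gene for a median of 41.3% of a member's transcript, with a range of 0 to 91.6%, and 7 members shared none. The longest annotated transcript matched to each member was used, coding ones first, and the share depends on this choice. Rps20, for example, was scored on 3706 bases, with 5.91% of windows shared. Other choices were not tried. Over the 76 members tested, the share of such windows and the mean FPKM had a Spearman rho of -0.67, while the share and the log2 fold change had a rho of -0.20. These are descriptions across genes of the same 5 libraries, without a test. The 44 members with up to 50% of windows shared had a median of 106.2 FPKM and a median log2 fold change of -0.17. The 32 members above 50% had a median of 23.0 FPKM and a median log2 fold change of -0.23. Of the genes called, Rpl29 shared 50.95%, Rps18 57.3%, Rpl11 59.7% and Rps12 81.7%, so the levels of all 4 are uncertain where the authors' counting divides or drops shared reads. Rpl34 is a different case: it shares 22.48% of its windows with its pseudogene Rpl34-ps1, yet the counts of both were nearly alike. Rpl34-ps1 held 317 and 832 counts in mutants 4 and 6, against 787, 567 and 748 in the controls. Rpl34 itself held 322 and 836 counts in the mutants, against 799, 578 and 758 in the controls. Whether the same reads were counted for both was not tested. Rpl34 was also the member whose mutants differed most, at 28.5 and 64.5 CPM.

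**Figure D4:**
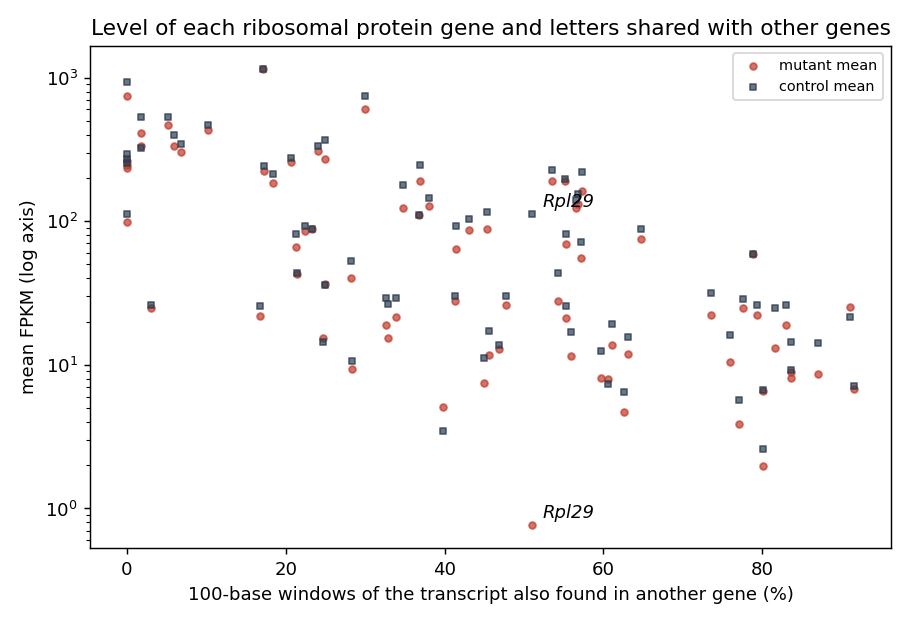
Mean FPKM (log axis) of each of the 76 ribosomal protein genes tested, in mutants (red circles) and controls (dark squares), against the percentage of 100-base windows of its transcript found in another gene. Levels run lower where more is shared (rho -0.67 for the mean of all libraries), and Rpl29, at 50.95% shared, is the single gene whose mutant point lies far below its control point.

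The starts of the 3 other called genes are shown since their messages moved the same way (RefSeq, GRCm38.p6). Each runs from 40 bases before to 20 bases after the annotated start. Capitals mark a run of at least 5 pyrimidines that spans the start, or the letters CCGGAAGT on either strand, a match to the core of an ETS factor motif. Rpl11 lies at chr4:136053374-136053433, Rps12 at chr10:23787190-23787249 and Rps18 at chr17:33955646-33955705, all on the minus strand.
Rpl11: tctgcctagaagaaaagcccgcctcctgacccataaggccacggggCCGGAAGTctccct
Rps12: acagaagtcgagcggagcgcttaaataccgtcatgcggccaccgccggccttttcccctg
Rps18: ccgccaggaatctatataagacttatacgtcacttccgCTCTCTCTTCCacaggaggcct
The pyrimidine run of Rps18 has 11 letters, and neither Rpl11 nor Rps12 has a run of 5 at the annotated start. Both printed stretches do hold a run of at least 5 pyrimidines near their downstream end, which was not counted. The outcome depends on where the start is annotated, so it does not show that these messages lack a TOP element. In windows of 300 bases, 57 of 78 members had a promoter entry, without Rpl29. A run of at least 5 that spans the annotated start was found in 33.3% of these 57, against 16.1% of all 27025 promoters. CCGGAAGT on either strand was found in 17.5%, against 4.0%. TATAAA was found in 8.77% against 14.2%, CACGTG in 8.77% against 7.24%, and AAGATGGC in 7.02% against 2.88%. CpG dinucleotides, where Dnmt1 copies methylation that is already present, had a median of 21 per window in members and 7 in all promoters. Their number does not tell whether they were methylated. A match is a description of letters and not a binding site, and no methylation was measured in these libraries.

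The members Rps4x, Rpl36a, Rpl10 and Rpl39 lie on the X chromosome and were not called. Since Xist and the Y-linked transcripts split with the groups, sex and genotype cannot be told apart for these genes either. Rps4x had 177.1 and 208.6 CPM in mutants 4 and 6, against 236.6, 312.1 and 247.1 CPM in the controls (log2 fold change -0.46, edgeR adjusted p = 0.0732). The log2 fold changes of Rpl36a, Rpl10 and Rpl39 were -0.55, 0.00 and 0.03, with edgeR adjusted p = 0.231, 0.996 and 0.947.

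Of 9 ribosomal protein paralogs in the table, 7 were tested and 2 were called higher (28.6%, against 6.11% of all genes). Rpl10l and Rpl3l, which are also counted among the members, were not tested. Rpl39l, a paralog of Rpl39 known from testis, had 527 and 521 counts in mutants 4 and 6, against 2, 2 and 1 in controls 1, 2 and 3. Its level was 46.6 and 40.2 CPM in the mutants, against 0.110, 0.118 and 0.0704 CPM in the controls, and the ratio of summed counts after scaling was 425.5 (exact 95% interval 181.8 to 1313, counting error only; edgeR adjusted p = 1.61e-09). Rpl39 itself had 151.0 and 200.5 CPM in the mutants, against 126.9, 218.6 and 171.3 CPM in the controls, and the groups overlapped. Rps4y2, which RefSeq now lists as the transcribed pseudogene Rps4l, had 80.1 and 85.8 CPM in the mutants, against 33.5, 37.3 and 41.6 CPM in the controls (log2 fold change 1.15 ± 0.14, edgeR adjusted p = 0.00019). Both calls held in 16 of 16 alternative settings. The other 5 paralogs, Rps27l, Rpl36al, Rpl22l1, Rpl7l1 and Rsl24d1, had log2 fold changes between -0.19 and 0.20, and none was called.

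There are 4 further cytosolic ribosomal proteins with names outside the rule, and none was called. Among them are Gnb2l1, the signalling scaffold RACK1 of the small subunit (log2 fold change -0.24, edgeR adjusted p = 0.288), Rpsa (-0.15, edgeR adjusted p = 0.582), and Fau, which is made as a fusion with a relative of ubiquitin (-0.21, edgeR adjusted p = 0.624).

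Lists of genes that build ribosomes or act in translation are given beside the same background, 6.11% of all genes called higher, 4.17% called lower and 50.8% with a negative log2 fold change. In the list of ribosome assembly and ribosomal RNA synthesis, 49 of 50 genes were found and tested, 0 rose and 2 fell (4.08%, near the background), with a median log2 fold change of -0.18. The log2 fold change was negative in 38 and positive in 11 of the 49. Both mutants lay below every control in 23 (46.9%, against 21.8% of all genes). They lay above every control in 6 (12.2%, against 21.7% of all genes). Polr1a, the largest subunit of RNA polymerase I, had 36.6 and 33.7 CPM in the mutants, against 55.6, 49.7 and 49.8 CPM in the controls (-0.56 ± 0.15, edgeR adjusted p = 0.0267). The assembly chaperone Grwd1 had 11.5 and 7.87 CPM in the mutants, against 16.7, 15.9 and 19.7 CPM in the controls (-0.85 ± 0.23, edgeR adjusted p = 0.0316). Gar1, of the particles that modify ribosomal RNA, did not pass (-0.51, edgeR adjusted p = 0.0606).

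Of 20 elongation factors and other genes with TOP-type messages, 0 rose and 3 fell (15%, against 4.17% of all genes), 19 had a negative log2 fold change, and the median was -0.18. Eif4b, a cofactor of the initiation helicase, had 222.3 and 215.8 CPM in the mutants, against 346.5, 330.4 and 369.9 CPM in the controls (log2 fold change -0.67 ± 0.13, edgeR adjusted p = 0.00497). The poly(A)-binding protein gene Pabpc1 fell by 0.53 ± 0.13 on the log2 scale (edgeR adjusted p = 0.0192), and the elongation factor gene Eef1g by 0.48 ± 0.14 (edgeR adjusted p = 0.0444). In these 3 genes every control stood above both mutants.

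Of 22 translation initiation genes, 1 rose and 1 fell (4.55% each, near the 6.11% and 4.17% of all genes), 13 had a negative log2 fold change, and the median was -0.08. The 2 called genes encode 4E-binding proteins, the mTOR targets that hold back cap-dependent translation. Eif4ebp1 had 53.1 and 55.3 CPM in the mutants, against 35.1, 38.5 and 34.3 CPM in the controls (log2 fold change 0.59 ± 0.14, edgeR adjusted p = 0.0163). Eif4ebp2 had 79.6 and 78.4 CPM in the mutants, against 132.1, 110.1 and 127.4 CPM in the controls (-0.64 ± 0.13, edgeR adjusted p = 0.00812).

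Of 12 regulators of ribosomal protein messages, 0 rose and 1 fell (8.33%, against 4.17% of all genes), 10 had a negative log2 fold change, and the median was -0.19. Larp1, which binds the TOP element, had 172.1 and 156.8 CPM in the mutants, against 244.0, 215.7 and 255.9 CPM in the controls (log2 fold change -0.54 ± 0.13, edgeR adjusted p = 0.0212). Of 73 mitochondrial ribosomal proteins, which form a separate ribosome, 0 rose and 4 fell (5.48%, near the 4.17% of all genes), 46 had a negative log2 fold change, and the median was -0.05. The 3 with the smallest p were Mrpl3 (-0.60), Mrps15 (-0.66) and Mrps25 (-0.47), with edgeR adjusted p = 0.0152, 0.0277 and 0.0324.

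These calls rested on few libraries. Of the calls named in the last 4 lists and in ribosome assembly, each was lost without mutant 6 and all but that of Grwd1 without mutant 4. Those of Polr1a, Grwd1, Eef1g, Eif4ebp1, Larp1, Mrpl3, Mrps15 and Mrps25 were also lost without control 1, those of Eef1g, Mrps15 and Mrps25 without control 2, and that of Grwd1 without control 3. On log2(FPKM + 1) over all rows none of them was called.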

How the data were processed

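Raw read counts, deposited by the authors with 1 row per RefSeq transcript, came with a second deposited table of FPKM on the same 28644 rows, for 22869 symbols in 5 libraries (single reads of 100 bp). Per the submitters' processing notes, build mm9 and edgeR were used. The sources used here do not give the aligner, the counter, the versions or the handling of reads with several matches. A further column headed Best was not used. Each member was represented by its row with the highest mean count (90 rows, 9 members with several); 76 passed edgeR's default filter on low counts.

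The test was edgeR's quasi-likelihood test on these counts (edgeR 4.0.16 in R 4.3.3), TMM scaling, no covariate and 3 residual degrees of freedom, with Benjamini-Hochberg adjustment over all 19353 rows (14572 genes) tested. Calls are at an adjusted p under 0.05. CPM is counts scaled after TMM. The scripts were tested on simulated data. Alternatives were other scalings and filters, DESeq2 1.42.0, limma-voom (limma 3.58.1), limma with a trended variance on log2(FPKM + 1) or log2(FPKM + 0.1), and leaving out each library. Intervals and floors cover counting error only, since amplified reads are not independent molecules.

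The members and gene lists were chosen with earlier results of these data known. Genes named are Rpl29, called members, the 5 highest and lowest by FPKM and by log2 fold change, all paralogs and other cytosolic members, up to 3 per further list by p, neighbours and copies of Rpl29, and the genes with the lowest ratios; some genes under this rule are not reported here. The shared windows (against GENCODE M21 transcripts), the split of members at 50%, the spread within groups, the X-linked members and the sequences printed were chosen after the data were seen.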

Additional observations from a re-analysis of the deposited data

How the results depend on the processing

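No paired analysis was possible, because the labels do not say which mutant and control libraries came from the same litter. The groups also share no replicate numbers. The fall of Rpl29 kept its call in all settings, from -6.95 to -5.93 on the log2 scale (-6.91 to -6.44 with 1 library left out). Members called lower, 4 as reported, were 2 with upper-quartile scaling, 9 with no filter on low counts, 8 with DESeq2, 2 with limma-voom, 1 on log2(FPKM + 1) and log2(FPKM + 0.1), 2 on log2(FPKM + 1) with a mean FPKM of at least 1, and 1 to 5 with 1 library left out; members called higher were 0 throughout. Over all genes, 891 were called higher and 608 lower. The 3 FPKM settings gave 97, 155 and 258 higher and 13, 36 and 131 lower, no filter gave 935 lower, and leaving out 1 library gave 408 to 1057 higher and 170 to 645 lower. In the other lists, 3 calls higher became 5 with no filter and 2 to 5 with 1 library left out, and 11 calls lower became 0, 0 and 1 on FPKM and 0 to 9 with 1 library left out. The members' median stayed negative, -0.31 to -0.12 with 1 library left out. Their share of summed FPKM was 2.86% in mutants and 3.57% in controls. No scaling moved the median of all genes by over 0.1. The named genes whose sign turned were all uncalled. Rpl41 was at 0.008 with RLE scaling and with DESeq2, 0.0076 with limma-voom, 0.0097, 0.0098 and 0.0097 in the 3 FPKM settings, 0.0349 with upper-quartile scaling, 0.0178 with a filter of 5 CPM in 2 libraries, and -0.12 to 0.15 with 1 library left out. On the 3 FPKM settings Rpl34 was at -0.22 and Rps27a at -0.41, -0.48 and -0.41. With 1 library left out, Rpl34 ran from -0.62 to 0.56, Rps27a from -0.0631 to 0.17, Rpl28 from -0.32 to 0.34, Rps29 from -0.052 to 0.77, Rpsa from -0.32 to 0.0039, Rpl22l1 from -0.11 to 0.31 and Rpl7l1 from -0.0911 to 0.0316. The cause of these changes was not tested. A setting with 1 mutant assumes that it varies like the controls. Depth limits low members such as Rpl24, Rpl28 and Rpl17.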
